A study of Mus musculus with 113 samples.

Results

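The first hours of neural induction were described from 6 RNA-seq libraries of mouse R1 ES cells in SFEB culture, in which ES cells form floating, embryoid body-like aggregates in medium without serum. The libraries were chosen by their labelled hour. They were the cell populations of 0, 1, 2 and 8 h of one sample series, called the t series after its column names, and those of 0 and 9 h of another, the S series. They make up 6 of the 113 samples of the series and 6 of its 22 SFEB cell populations. The study followed ES cells to neural progenitors in floating and in adherent culture, with RNA-seq of cell populations and of hand-picked single cells. Cells of the 0 h libraries had not been induced, and those of the other libraries had been dissociated and seeded in GKSR medium in petri dishes. No genotype other than the R1 line and no added agent is labelled for any of the 6, the cells came from 1 line, and per the methods they had been passaged once without feeder cells. Each library is 1 sample, so the comparison was made between the 4 libraries of 0 to 2 h, called early, and those of 8 and 9 h, called late.

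Mouse ES cells are held in a naive pluripotent state by the cytokine LIF, which acts through the factor Stat3, and they leave it towards a formative, epiblast-like state once such signals are withdrawn. Cells that are lifted from a dish and left to float also lose a surface to pull on, and the factor SRF with its actin-sensing partners and the factor YAP are known to follow actin assembly and attachment. Oxygen supply acts on another set of genes, through the hypoxia-inducible factors, which are known to bind the letters ACGTG.

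Values were FPKM after ComBat batch correction by the authors, and read depth cannot be recovered from them. They summed to 436982, 486708 and 572961 over all genes at 0, 1 and 2 h of the t series, to 470202 at 0 h of the S series, and to 484275 and 472034 at 8 and 9 h. The correction left values below 0, which were taken as 0. There were 3, 6, 3 and 7 of them at 0, 1, 2 and 8 h of the t series, and 142 and 166 at 0 and 9 h of the S series. Such an offset between series is plain in *Fabp7*, a fatty acid binding protein of radial glia, which was listed at 13.2, 12.9, 14.4 and 13.3 in the t series libraries and at 0 in both S series libraries. For this reason a gene was counted as changed only where the limma fit with a term for the series gave a Benjamini-Hochberg adjusted p below 0.05 and where the late libraries differed from the early ones by at least 0.5 on the log2 scale, in the same direction, within each series.

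The 2 h library stood apart from the other 5. Its mean Pearson r with them was 0.965 on log2(FPKM + 1), against 0.975, 0.978 and 0.976 for the other early libraries and 0.972 and 0.966 for the late ones, and genes are not independent replicates in such a correlation. It had 28 genes at least 1 on the log2 scale above, and 17 that far below, each of the other libraries, where the others had 0 to 3 above and 0 to 6 below. Genes of cytosolic ribosomal proteins held 16.6% of its summed FPKM, and 11.9 to 13.4% in the others. *Dppa5a*, a small protein of pluripotent cells, stood at 1747 FPKM there and between 773 and 902 in the other 5, while *Fn1*, the fibronectin of the extracellular matrix, stood at 195 there and between 294 and 524 elsewhere. *Fn1* passed as lower late only without the 2 h library (-0.75, and -0.47 with all 6). Across the 12340 genes that have an annotated transcript length, the Spearman rho of that length with the difference of 2 h from the mean of 0 and 1 h was -0.55. It was -0.28 for 1 h minus 0 h of the t series and -0.17 for 0 h of the S series minus 0 h of the t series. The median at 2 h ran from 0.37 and 0.50 on the log2 scale for transcripts of up to 500 and up to 1000 bases to -0.36 for those over 4000. At 1 h it ran from 0.20 and 0.21 to -0.01. Between late and early libraries rho was 0.10, and -0.03 without the 2 h library.

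**Figure D1:**
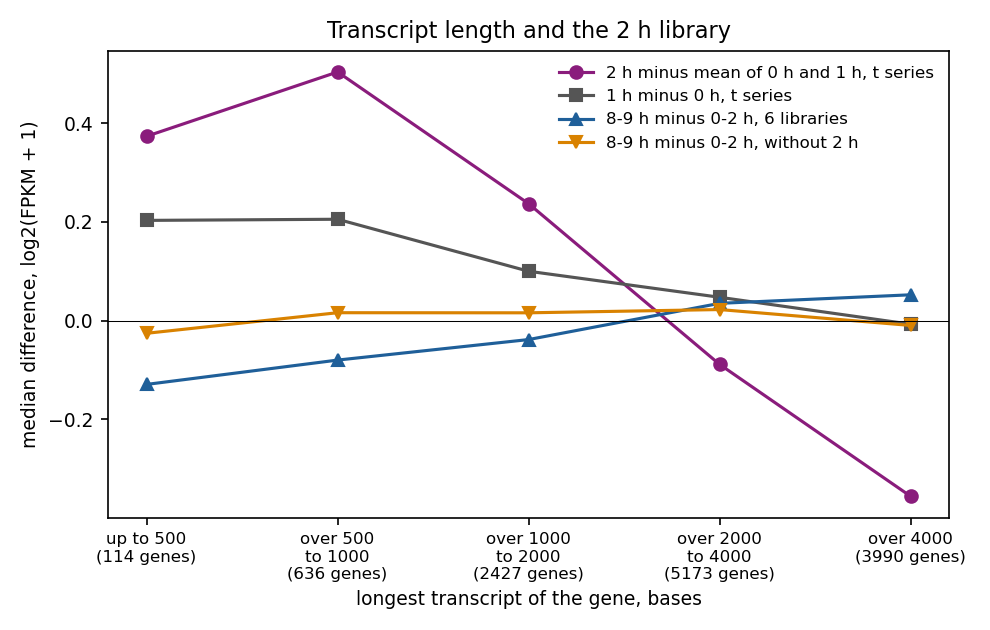
Median difference on log2(FPKM + 1) of genes grouped by the length of their longest annotated transcript in bases, for 4 comparisons of SFEB libraries. The 2 h library lay 0.50 above the 0 and 1 h libraries for transcripts of over 500 and up to 1000 bases and at -0.36 for those over 4000 bases, while the late minus early medians stayed between -0.13 and 0.05.

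The cells were first checked against marker genes. Of the 10 ES cell markers, the factor gene *Pou5f1* was at 385, 422 and 571 FPKM at 0, 1 and 2 h of the t series and 451 at 0 h of the S series, and at 479 and 443 at 8 and 9 h. These groups overlapped, and so did those of *Zfp42*, a zinc finger gene of naive ES cells, which stood at 296 to 373 FPKM in the early libraries and at 317 and 308 in the late ones. The 10 markers summed to 2590.0, 2790.0 and 3873 FPKM at 0, 1 and 2 h of the t series, 2866 at 0 h of the S series, and 2569 and 2367 at 8 and 9 h. Of this list 0 genes were higher, 1 was lower and 9 did not pass, with a median log2 difference of -0.26. Of all tested genes 1.6% were higher and 3.61% lower, and 3135 of 12503 had an unadjusted p under 0.05 in limma. In the fit without the 2 h library, where the shares were 4.01% and 8.97%, 2 of the list were lower, at a median of -0.15. The neural progenitor list had 8 tested genes, of which 1, *Pax6*, was higher, 0 were lower and 7 did not pass (1 and 1 without the 2 h library), at a median of -0.07 and summed levels of 97.3, 109 and 114 FPKM at 0, 1 and 2 h of the t series, 73.4 at 0 h of the S series, and 116 and 78.8 at 8 and 9 h. Its most abundant gene was *Tubb3*, a neuronal tubulin, at 42.1 to 60.7 FPKM early and 72.4 and 50.1 late. Of 4 tested mesoderm markers limma gave 0 higher and 0 lower, with 0 at an unadjusted p under 0.05, and their summed levels were 10.8, 10.6 and 7.53 FPKM at 0, 1 and 2 h of the t series, 8.65 at 0 h of the S series, and 11.4 and 7.34 at 8 and 9 h. Of 4 tested trophoblast markers 0 were higher and 0 lower, with 2 at an unadjusted p under 0.05, and they summed to 7.49, 8.73 and 8.13 FPKM at 0, 1 and 2 h of the t series, 5.83 at 0 h of the S series, and 6.75 and 3.31 at 8 and 9 h. In the mesoderm list *Pdgfra*, a growth factor receptor, was the most abundant gene, at 2.43 to 4.97 FPKM early and 3.83 and 3.50 late, and in the trophoblast list it was the factor gene *Ascl2*, at 2.85 to 4.23 early and 2.60 and 1.4 late. Median differences were -0.02 for mesoderm, which becomes 0.14 after quantile normalization and -0.07 without 2 h, and -0.32 for trophoblast. Primitive endoderm markers passed in 0 of 10 tested genes at a median of -0.33, with 0 higher and 0 lower in limma, 3 genes at an unadjusted p under 0.05, and 3 lower without the 2 h library. Their sums were 429.7, 426 and 374 FPKM at 0, 1 and 2 h of the t series, 445 at 0 h of the S series, and 289 and 275 at 8 and 9 h, led by *Sparc*, a matrix protein, at 245 to 292 FPKM early and 167 and 174 late, which passed as lower only without the 2 h library. Of 17 primitive endoderm markers 11 had values, and *Sox17*, *Sox7*, *Afp*, *Ttr*, *Cubn* and *Hnf4a* had none. After *Sparc* the most abundant were *Lamb1*, *Col4a1* and *Col4a2*. Of 10 trophoblast and 10 mesoderm markers 4 and 6 had values, and *Pdgfra* is also on the fibroblast list. Whether such cells were present, and their part in the falls given further on, was not tested.

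Markers of fibroblasts, cells that often serve as feeders for ES cells, were present in every library. The 20 genes summed to 1449, 1368 and 1004 FPKM at 0, 1 and 2 h of the t series, 1520.0 at 0 h of the S series, and 675 and 660.1 at 8 and 9 h, and 0 of the 20 were below 1 FPKM in all 6 libraries. The most abundant, the collagen gene *Col1a1*, was at 316, 284 and 179 FPKM at 0, 1 and 2 h of the t series and 292 at 0 h of the S series, and at 126 and 115 at 8 and 9 h. Its late values lay below all early ones, the fitted log2 difference was -1.13 (SE 0.26) and the limma adjusted p of 0.0573 did not pass, whereas without the 2 h library it passed, at -1.28. Lower by the rule were 5 of the 20, *Col1a2*, *Col5a1* and *Col5a2* of the fibrillar collagens, the secreted *Fstl1* and the surface protein *Thy1*. *Thy1* was at 56.4, 70.3 and 46.96 FPKM at 0, 1 and 2 h of the t series and 82.8 at 0 h of the S series, and at 23.9 and 25.9 at 8 and 9 h. The other 15 did not pass and 0 were higher, and without the 2 h library 12 were lower. Of all tested genes 3.61% were lower, and 8.97% without 2 h. All 20 had a fitted difference below 0, with a median of -0.65, and their part in the falls given further on was not tested. In bulk samples, fewer cells of a type and less RNA per cell cannot be told apart. In adherent culture the same genes summed to 696.5, 690.7 and 517 FPKM at 0, 2.5 and 8.5 h. In the hand-picked cells, whose table holds 11 of the genes, the sums ran from 1.51 to 121.5 RPKM over 8 cells of 0 h (median 18.8) and from 4.84 to 479.8 over 8 cells of 9 h (median 36.8).

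Of 13541 genes in the table, 12503 had at least 1 FPKM in at least 2 of the 6 libraries and were tested. By the rule, 200 genes were higher late (1.6%) and 451 were lower (3.61%), and 11852 did not pass, so 69.3% of the 651 changed genes were lower. At an unadjusted p under 0.05 in limma there were 3135 of the 12503, with 1377 higher and 1758 lower. Counts of list members at that threshold are to be read beside this share. Over all tested genes the median log2 difference was 0.02, and 52.2% were above 0. Both late values lay above all early ones in 2456 of the 12503, and below all of them in 2361. A gap between the groups of a single gene is to be read beside these counts. The groups pool different hours, and the p-values measure only the spread between these libraries, which may be technical.

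The counts moved when single libraries were left out. Without the 2 h library 501 genes were higher (4.01%) and 1121 lower (8.97%), and these held all 200 of the former and 450 of the 451. Without the 0 h library of the t series there were 43 and 165, and without the 1 h library 13 and 30. Without the 0 h library of the S series, the 8 h library or the 9 h library, limma with the series term gave 0 and 0, with 1307, 959 and 1308 genes at an unadjusted p under 0.05, and a lone library of a series or group was then assumed to vary like the others. The same omissions without the series term, chosen after seeing the data, gave 204 and 478, 33 and 113, and 8 and 22.

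The series could also be read apart with no test. At least 1 on the log2 scale higher in both were 38 genes (0.304%), and 184 were that far lower (1.47%), of which 36 and 156 were also among the changed genes. The t series difference (8 h minus the mean of 0, 1 and 2 h) and the S series difference (9 h minus 0 h) had the same sign in 9746 genes (77.9%), and across genes, which are not independent replicates, their Pearson r was 0.77 and Spearman rho 0.76. Genes that were higher had a median difference of 0.85 and went from a median of 7.76 to 14.9 FPKM, and genes that were lower had a median difference of -0.98 and went from 7.96 to 3.16. The median gene tested was at 10.3 FPKM early. The annotated transcript had a median of 3151 bases for higher and 2459 for lower genes, against 3078 for all.

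**Figure D2:**
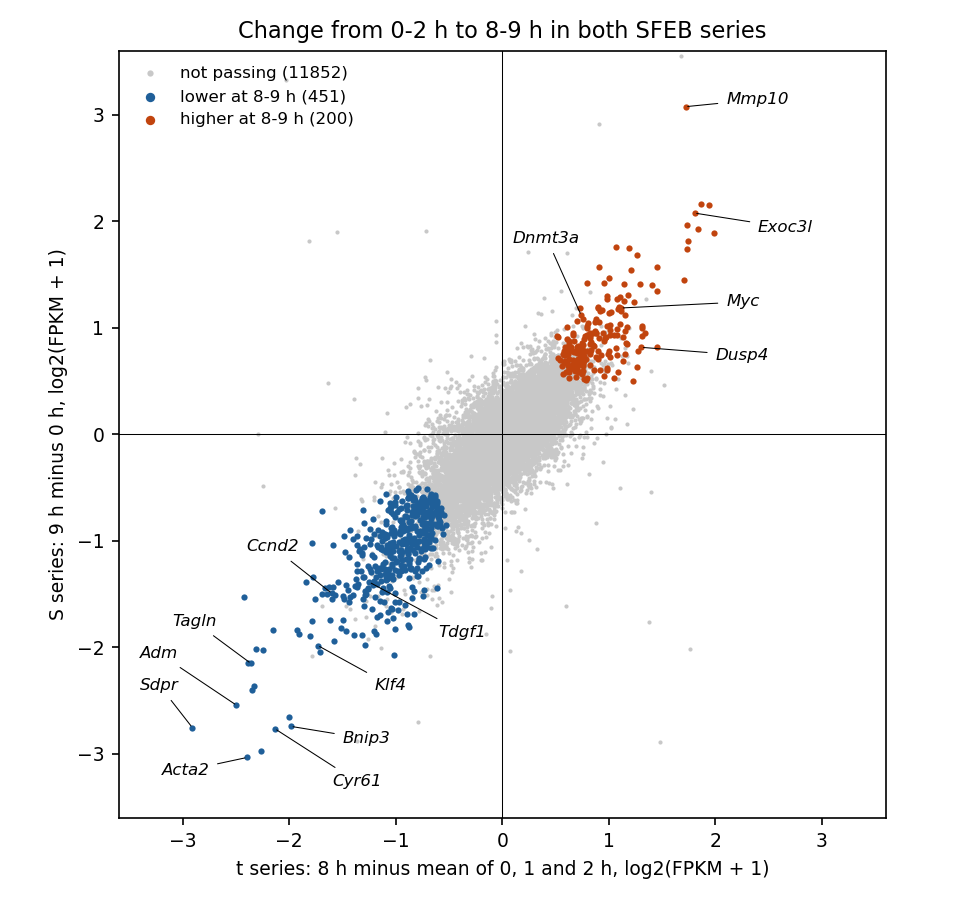
Difference on log2(FPKM + 1) within the t series (x axis) and within the S series (y axis) of each tested gene, with the 200 higher genes in red, the 451 lower genes in blue and the others in grey. Coloured genes lie in the upper right and lower left, with *Mmp10* and *Exoc3l* far up and *Acta2* and *Sdpr* far down, and 2 grey genes lie outside the axes.

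Among the lower genes the largest fall was in *Sdpr*, which encodes a coat protein of caveolae (chr1:51345970-51359803, NCBIM37). It was at 9.81, 10.8 and 7.69 FPKM at 0, 1 and 2 h of the t series and 8.97 at 0 h of the S series, and at 0.377 and 0.480 at 8 and 9 h. The late libraries were both under 1 FPKM and all early ones above 7, a fitted difference of -2.85 (SE 0.17, limma adjusted p 0.00546). *Slc16a3*, a lactate exporter, was at 60.6, 59.3 and 39.3 FPKM at 0, 1 and 2 h of the t series and 76.9 at 0 h of the S series, and at 9.70 and 18.3 at 8 and 9 h. Here the 9 h value was above the 8 h value, yet both were under the lowest early one, and the fitted difference was -2.19 (adjusted p 0.00775). *Ly6g6e*, of the Ly6 family of surface proteins, was at 11.6 to 15.6 early and 1.75 and 1.45 late, with a difference of -2.37. Of the 12 largest falls, 8 belonged to the actin and hypoxia groups described next.

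The list of known SRF and YAP targets had the lowest median, and the activity of SRF and YAP themselves was not measured. Of 29 tested, 18 were lower, 0 were higher and 11 did not pass, at a median of -1.11 on the log2 scale. All tested genes had a median of 0.02, with 3.61% lower and 1.6% higher. Without the 2 h library 19 were lower at a median of -1.05, beside 8.97% of all. *Acta2*, the actin of smooth muscle (chr19:34315580-34329826, NCBIM37), was at 257, 252 and 185 FPKM at 0, 1 and 2 h of the t series and 249 at 0 h of the S series, and at 42.6 and 29.5 at 8 and 9 h. All 4 early libraries were above 180 and the late ones below 45, so the groups were far apart, with a difference of -2.65 (SE 0.22, adjusted p 0.00546). *Tagln*, an actin-binding protein of smooth muscle, was at 147, 152 and 184 FPKM at 0, 1 and 2 h of the t series and 149 at 0 h of the S series, and at 30.4 and 32.9 at 8 and 9 h. The difference was -2.28 (SE 0.16), and the 2 h library was the highest for this gene. *Actg2*, another smooth muscle actin, was at 14.8 to 23.6 FPKM early and 2.86 and 2.92 late, and *Fhl2*, a LIM domain protein that binds SRF, at 12.2 to 16.04 FPKM early and 2.27 and 2.22 late. Tropomyosin genes had smaller differences, -1.02 for *Tpm1* (150.5 to 179.6 FPKM early, 78.3 and 77.9 late) and -1.55 for *Tpm2* (24.4 to 38.04 FPKM early and 9.31 and 8.99 late). The remaining muscle-type genes on the list, *Myl9*, *Cnn1*, *Acta1* and *Fhl1*, had differences between -1.19 and -0.92.

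The other lower genes of the list include known YAP targets. *Cyr61*, a secreted matrix protein, was at 69.97, 81.5 and 35.02 FPKM at 0, 1 and 2 h of the t series and 58.7 at 0 h of the S series, and at 12.6 and 7.79 at 8 and 9 h. Its 2 h value was already the lowest of the early group, at 35.0 FPKM, and the difference was -2.39 with all 6 libraries (SE 0.35, adjusted p 0.0218) and -2.61 without 2 h. *Ctgf*, its relative, was at 90.5 to 115 FPKM early and 30.1 and 35.1 late. *Ankrd1*, an ankyrin repeat protein, was at 4.78 to 5.25 FPKM in the early libraries and at 0.185 and 0.302 in the late ones, with a difference of -2.29. *Thbs1*, which encodes a matrix glycoprotein, was at 318, 285 and 117 FPKM at 0, 1 and 2 h of the t series and 243 at 0 h of the S series, and at 53.97 and 37.8 at 8 and 9 h. Both late values and the 2 h value were below the other early ones, and the SE of 0.42 was the widest of the 12 largest falls (difference -2.26, adjusted p 0.0369). *Amotl2*, a binding partner of YAP, was at 26.5 to 36.8 FPKM early and 15.6 and 14.8 late, and the annexin genes *Anxa1* and *Anxa3* had differences of -1.37 and -2.03. *Lmna*, for the nuclear lamins A and C, completes the 18, with -0.95.

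The 3 most abundant genes of the list did not pass. *Actb*, the actin of all cells, was at 1742, 2358 and 2545 FPKM at 0, 1 and 2 h of the t series and 1574 at 0 h of the S series, and at 3185 and 1996 at 8 and 9 h. Early and late values overlapped, as they did for *Actg1*, and the differences of 0.46 and 0.46 did not pass (adjusted p 0.364 and 0.349). *S100a6*, a calcium-binding protein, was at 476 to 1206 FPKM early and 299.6 and 240.0 late, did not pass with 6 libraries (adjusted p 0.0929), and was lower without the 2 h library at -1.05. With these included, the list summed to 5549, 6868 and 7409 FPKM at 0, 1 and 2 h of the t series, 5555 at 0 h of the S series, and 7009 and 4752 at 8 and 9 h. Other members that did not pass were *Srf* itself (0.18), *Flna* (0.22), *Vcl* (-0.08) and *Cnn2* (-0.01). Of the 29 differences 4 were above 0. The sum of the fibroblast markers was lower late as well (1004 to 1520 FPKM early, 660.1 and 674.8 late), and its part in the fall of this list was not tested.

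In adherent culture the cells were plated on gelatin-coated dishes. There 28 of the 29 genes were also below 0 at 8.5 h against the mean of 0 and 2.5 h. Their median was -0.92 (no replicate, no test), where 41.4% of all genes were below 0. *Acta2* was at 366, 297 and 165 FPKM at 0, 2.5 and 8.5 h there, *Tagln* at 149, 125 and 60.1, and *Cyr61* at 45.1, 10.2 and 10.3. *Cyr61* was thus low by 2.5 h, whereas *Acta2* and *Tagln* had lost less by then. In the hand-picked cells the mean RPKM of *Acta2* was 133 at 0 h and 16.9 at 9 h. There 13 of 26 measured genes of the list were below 0, at a median of 0.05, beside 50.6% of all genes. At 22 h of the t series *Acta2* stood at 8.10 FPKM and *Tagln* at 2.39.

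Glycolysis and hypoxia genes formed the other large group of falls. Of 34 tested, 13 were lower, 0 were higher and 21 did not pass, at a median of -0.74, beside 3.61% lower and 1.6% higher of all tested genes. Without the 2 h library 19 were lower and 1 was higher, beside 8.97% and 4.01%. *Bnip3*, a mitochondrial protein of mitophagy (chr7:146082519-146101202, NCBIM37), was at 33.5, 35.3 and 33.8 FPKM at 0, 1 and 2 h of the t series and 61.3 at 0 h of the S series, and at 7.90 and 8.31 at 8 and 9 h. The 0 h library of the S series was far above the other early ones, which lay close together, and all 4 were over 4-fold the late values, with a difference of -2.29 (SE 0.19, adjusted p 0.00546). *Adm*, the peptide hormone adrenomedullin, was at 11.7, 12.2 and 7.07 FPKM at 0, 1 and 2 h of the t series and 7.56 at 0 h of the S series, and at 0.964 and 0.468 at 8 and 9 h, so that only the late libraries were below 1 FPKM and the difference was -2.51 (SE 0.23). Prolyl hydroxylases that act on the hypoxia-inducible factor were lower, *Egln1* with a difference of -0.94 and *Egln3* with -1.44, as were those that act on collagen, *P4ha1* (24.5 to 34.5 FPKM early, 11.8 and 10.1 late) and *P4ha2* (18.02 to 25.9 FPKM early and 11.01 and 7.37 late). The list also held *Vegfa*, for a vessel growth factor, at 15.7 to 22.9 FPKM early and 10.9 and 10.7 late, and *Ndrg1*, *Ankrd37* and *Ddit4*, with differences of -1.33, -1.27 and -0.81.

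Of the enzymes of glycolysis 3 were among the lower genes. *Ldha*, a subunit of lactate dehydrogenase, was at 666, 758 and 757 FPKM at 0, 1 and 2 h of the t series and 894 at 0 h of the S series, and at 398 and 452 at 8 and 9 h. The groups did not overlap, as in 2361 of all 12503 tested genes in this direction, and the difference was -0.91 (SE 0.19, adjusted p 0.0445). *Tpi1*, triose phosphate isomerase, was at 176 to 246 FPKM early and 83.5 and 84.8 late (-1.33 on the log2 scale), and *Pfkl*, a phosphofructokinase, at 75.5 to 88.6 FPKM early and 45.8 and 42.7 late (-0.91). *Gapdh* was at 758, 849.7 and 639 FPKM at 0, 1 and 2 h of the t series and 1208 at 0 h of the S series, and at 739 and 994 at 8 and 9 h, values that overlap, with a difference of -0.12. *Pkm2*, the pyruvate kinase and most abundant gene of the list, had 1256 to 1469 FPKM early and 927 and 922 late and did not pass (-0.55, adjusted p 0.17), and *Aldoa*, an aldolase, at -0.76, passed only without the 2 h library. The list's sum was 6091, 6589 and 6221 FPKM at 0, 1 and 2 h of the t series, 7675 at 0 h of the S series, and 4617 and 4610.0 at 8 and 9 h, highest at 0 h of the S series. The part of the fibroblast markers, whose sum was lower in the late libraries too, was not tested here either.

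The list was also read outside SFEB populations. In adherent culture 16 of 34 genes were below 0, at a median of 0.03, beside 41.4% of all genes. *Bnip3* was at 6.47, 5.39 and 5.80 FPKM at 0, 2.5 and 8.5 h. *Adm* was at 1.55, 0.792 and 0.820 there and *Slc16a3*, which is outside the list, at 8.26, 4.88 and 7.14. In the hand-picked cells 28 of 32 genes were below 0, with a median of -0.67, beside 50.6% of all genes. The mean RPKM of *Bnip3* was 29.1 at 0 h and 0.0552 at 9 h. Mean *Ldha* was 1506 and 456 RPKM. Whether the cultures differ was not tested, since adherent hours have 1 library each.

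**Figure D3:**
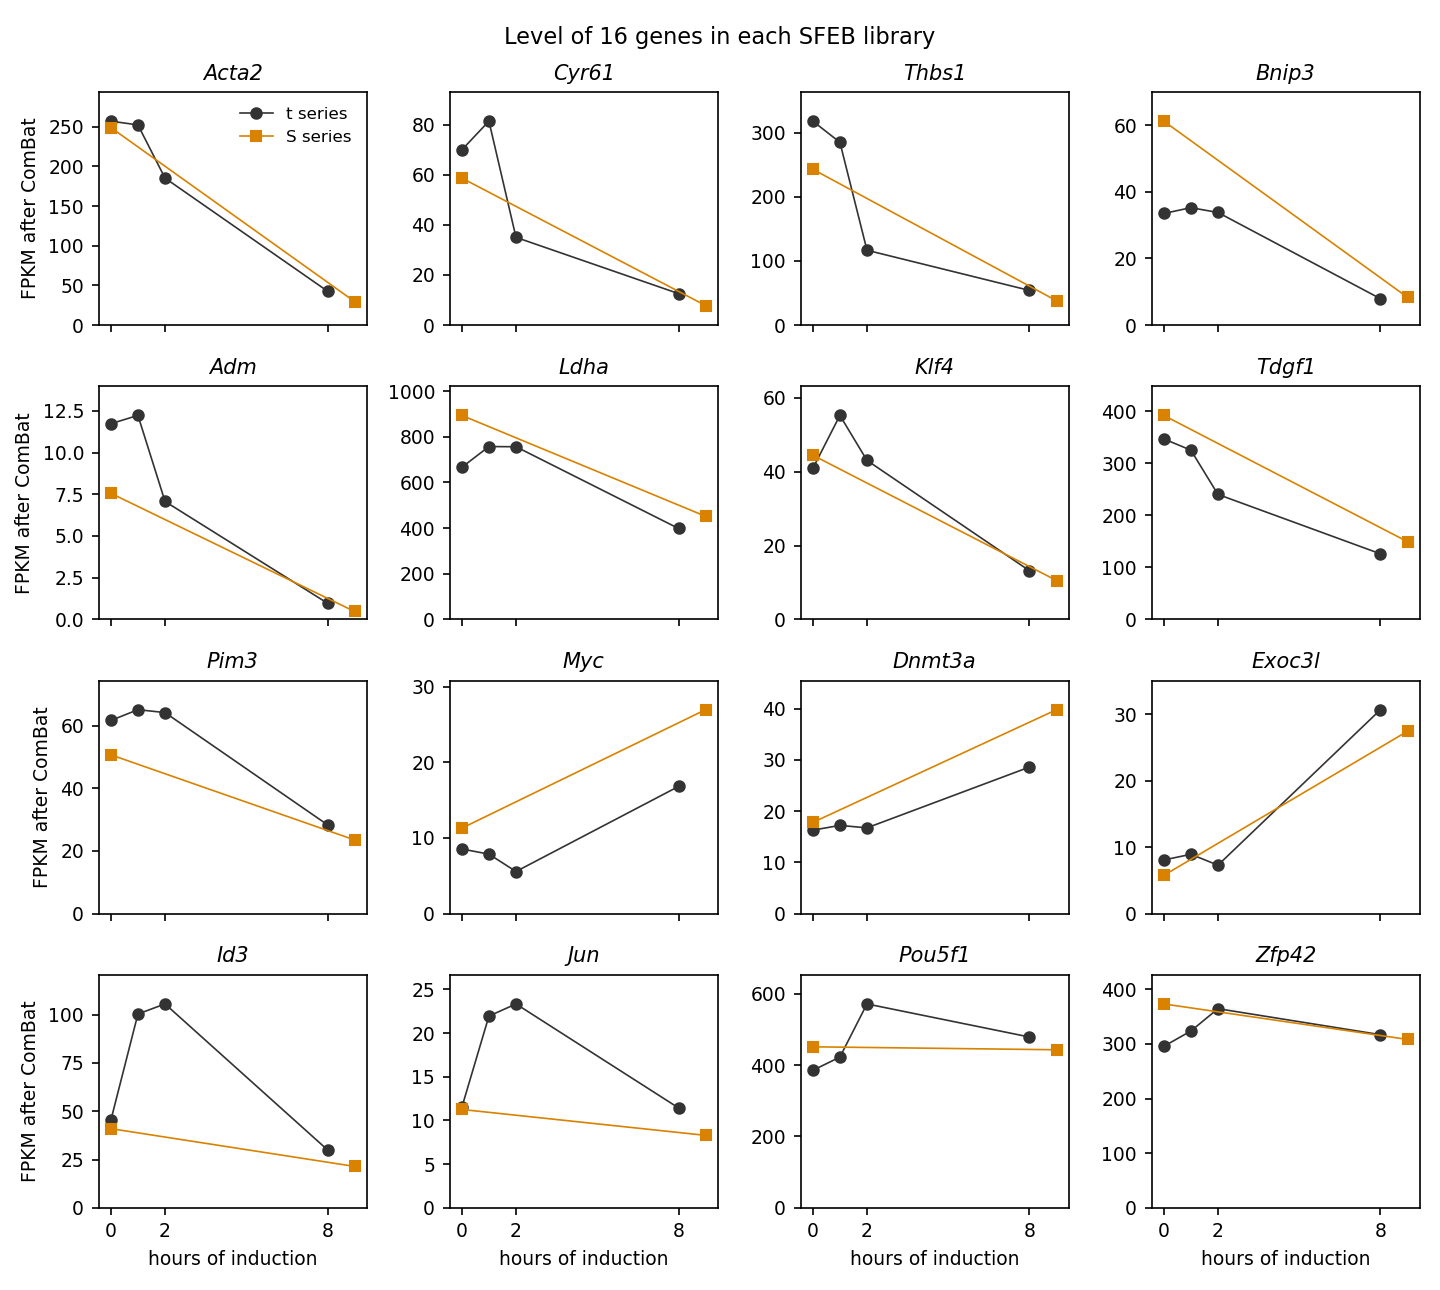
FPKM after ComBat of 16 genes against hours of induction, with each point 1 library, circles for the t series and squares for the S series, lines joining libraries of a series, and each axis starting at 0. *Acta2*, *Cyr61*, *Thbs1*, *Bnip3*, *Adm*, *Ldha*, *Klf4*, *Tdgf1* and *Pim3* were lower at 8 and 9 h than in any early library, *Myc*, *Dnmt3a* and *Exoc3l* were higher, and *Id3* and *Jun* were highest at 1 and 2 h. Of all 12503 tested genes 2361 were lower and 2456 higher late than in any early library.

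Promoters are shown for these lists because they held the most lower genes, 18 of 29 and 13 of 34. The sequences are RefSeq's for GRCm38.p6, and the motifs were sought on both strands in the 250 bases before and 50 after each start, in 22 of the 29 SRF and YAP genes and 30 of the 34 glycolysis and hypoxia genes that matched by symbol. The CArG box, to which SRF is known to bind, was in 488 of 27025 genes with a promoter of this length (1.81%), in 16 of the 317 matched lower genes (5.05%), in 4 of the 130 matched higher genes (3.08%) and in 8 of the 22 list members (36.4%). It was in 142 of the 8845 matched tested genes (1.61%). Among matched lower members it was in 4 of 12 (33.3%), namely *Acta1*, *Fhl1*, *Fhl2* and *Myl9*. The other members with the box, *Actg1*, *Cnn2*, *Srf* and *Vcl*, were not lower by the rule. The list was made of known targets, so its share is not independent of that choice. The letters ACGTG were in 21.8% of all genes with a promoter, 29.9% of matched tested genes, 27.8% of matched lower genes and 26.2% of matched higher genes, and in 21 of the 30 list members (70.0%), 9 of 12 among the lower ones (75.0%). On the other strand this motif reads CACGT, so that a run of CACGTG counts on both strands and was matched at neighbouring positions. A match is a description, not a site or a cause. The 250 bases before the start are given 5′ to 3′ for 4 lower genes, with the CArG box in capitals for *Fhl2* (chr1:43163962-43164211, minus strand, match starting at -31) and *Myl9* (chr2:156775214-156775463, plus strand, -161), and with ACGTG on either strand in capitals for *Bnip3* (chr7:138909507-138909756, minus strand, -108 and -107) and *Ldha* (chr7:46845554-46845803, plus strand, 5 matches from -145 to -34).
Fhl2: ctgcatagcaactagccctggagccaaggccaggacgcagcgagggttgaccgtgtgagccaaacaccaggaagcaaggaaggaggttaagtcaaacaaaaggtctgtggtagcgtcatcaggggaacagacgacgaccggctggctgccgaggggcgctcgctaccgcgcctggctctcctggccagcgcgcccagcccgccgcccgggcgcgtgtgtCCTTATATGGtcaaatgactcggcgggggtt
Myl9: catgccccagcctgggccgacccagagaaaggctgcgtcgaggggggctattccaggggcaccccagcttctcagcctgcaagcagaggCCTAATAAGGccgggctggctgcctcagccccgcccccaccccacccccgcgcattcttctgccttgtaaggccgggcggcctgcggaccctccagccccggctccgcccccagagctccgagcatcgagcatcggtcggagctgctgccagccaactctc
Bnip3: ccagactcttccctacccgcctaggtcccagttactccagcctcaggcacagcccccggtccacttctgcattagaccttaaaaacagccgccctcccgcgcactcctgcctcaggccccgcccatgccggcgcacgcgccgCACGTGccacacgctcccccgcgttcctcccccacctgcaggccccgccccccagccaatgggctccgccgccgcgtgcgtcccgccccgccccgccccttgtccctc
Ldha: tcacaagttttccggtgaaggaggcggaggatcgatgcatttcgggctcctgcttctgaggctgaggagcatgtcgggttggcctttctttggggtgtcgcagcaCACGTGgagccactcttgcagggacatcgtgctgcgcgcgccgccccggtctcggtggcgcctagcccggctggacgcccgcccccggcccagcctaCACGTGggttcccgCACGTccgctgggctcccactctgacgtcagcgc

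Targets of LIF and Stat3 had 18 tested genes, of which 5 were lower, 1 was higher and 12 did not pass, at a median of -0.82. Of all tested genes 3.61% were lower and 1.6% higher. Without the 2 h library 13 were lower and 2 higher, beside 8.97% and 4.01% of all. *Klf4*, a factor of the naive state (chr4:55540013-55545347, NCBIM37), was at 40.9, 55.3 and 43.1 FPKM at 0, 1 and 2 h of the t series and 44.5 at 0 h of the S series, and at 13.2 and 10.5 at 8 and 9 h. Each early library was above 40 FPKM and each late one below 14, a difference of -1.83 (SE 0.17, adjusted p 0.00686). *Pim3*, a kinase, was at 50.7 to 65.1 FPKM early and 28.3 and 23.5 late, and *Bcl3*, a partner of NF-kappa-B, at 16.5 to 26.6 FPKM early and 11.02 and 10.1 late. *Ccnd1*, a cyclin of G1, had a smaller difference of -0.77. *Myc* was the only one of the list to be higher. It was at 8.54, 7.86 and 5.56 FPKM at 0, 1 and 2 h of the t series and 11.3 at 0 h of the S series, and at 16.8 and 26.9 at 8 and 9 h, above each early value, and the difference was 1.14 (SE 0.19, adjusted p 0.0278). *Junb*, a subunit of AP-1, stood at 22.3 to 60.5 FPKM early and 14.6 and 11.4 late and passed only without the 2 h library (-1.52 with all 6, adjusted p 0.0688). In adherent culture *Klf4* was at 30.3, 17.9 and 18.4 FPKM at 0, 2.5 and 8.5 h and *Pim3* at 46.2, 25.4 and 25.3. There 14 of the 18 genes were below 0 at a median of -0.20, beside 41.4% of all genes. The mean of *Klf4* in the hand-picked cells was 39.1 RPKM at 0 h and 1.09 at 9 h, and that of *Pim3* 150.3 and 36.18. The other lower genes of the list had higher means at 9 h, *Bcl3* with 38.39 and 80.81, *Ccnd1* with 7.864 and 36.35 and *Zfp36* with 1.48 and 2.204. In these cells 10 of 17 genes of the list were below 0, at a median of -0.42, beside 50.6% of all genes.

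On the naive pluripotency list 1 of 20 genes (5%), *Klf4*, was lower, 0 were higher and 19 did not pass, at a median of -0.20. Of all tested genes 3.61% were lower and 1.6% higher. When 2 h was left out, 1 of the 20 was higher, beside 4.01% of all, and the median was -0.11. Of the 20 differences 7 were above 0, beside 52.2% of all tested genes. *Nanog* (171 to 217 FPKM early, 134 and 109 late) and *Esrrb* (104 to 126 early, 87.4 and 72.5 late) did not pass, at -0.56 and -0.49. Their late values lay below all early ones, as did those of *Klf2* and *Fbxo15*, while those of *Nr5a2* and *Jam2* lay above. *Spp1*, for the secreted osteopontin, overlapped between groups at 416 to 749.7 FPKM early and 586 and 729 late, as did *Tdh*, threonine dehydrogenase, at 188 to 286 FPKM early and 243 and 212 late. On the core list of 14 genes 1 was higher (7.14%), 1 was lower (7.14%) and 12 did not pass, at a median of 0.30. In the fit without 2 h, 3 were higher, beside the same 4.01%. *Tdgf1*, the co-receptor of Nodal (chr9:110842114-110848662, NCBIM37), was at 347, 325 and 240.0 FPKM at 0, 1 and 2 h of the t series and 392 at 0 h of the S series, and at 126 and 149 at 8 and 9 h. The late libraries were well below the early ones, with a difference of -1.30 (SE 0.20, adjusted p 0.0235). *Dppa2*, a chromatin protein of pluripotent cells, was the higher one, at 28.4 to 40.4 FPKM early and 61.9 and 72.9 late (0.86). *Utf1*, another chromatin protein, overlapped between groups at 248 to 398 FPKM early and 373 and 336 late, as did *Trim28*, a corepressor, at 569 to 653 FPKM early and 692 and 589 late. At 22 h *Klf4* was at 9.41 FPKM, *Tdgf1* at 210.1 and *Pou5f1* at 543.

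The formative epiblast list had 1 of 22 higher (4.55%, beside 1.6% of all tested genes), 0 lower (3.61% of all) and 21 not passing, at a median of 0.30. With 2 h left out, 2 were higher and 1 lower, beside 4.01% and 8.97%. Of the 22 differences 18 were above 0, beside 52.2% of all tested genes, with no test. The higher gene was the DNA methyltransferase *Dnmt3a* (chr12:3806007-3914443, NCBIM37), at 16.3, 17.2 and 16.7 FPKM at 0, 1 and 2 h of the t series and 17.8 at 0 h of the S series, and at 28.6 and 39.8 at 8 and 9 h. The early libraries lay within 2 FPKM of each other and both late ones were higher, with a difference of 0.89 (SE 0.14, adjusted p 0.0255). Its relative *Dnmt3b* was at 23.8, 26.3 and 20.1 FPKM at 0, 1 and 2 h of the t series and 39.05 at 0 h of the S series, and at 33.7 and 66.3 at 8 and 9 h. The 8 h value was below the early S series value, so groups overlapped, and 0.61 did not pass (adjusted p 0.0708), although each series was higher late. *Dnmt3l*, their cofactor, overlapped at 51.6 to 81.05 FPKM early and 71.5 and 76.3 late. By 22 h *Dnmt3a* was at 78.5 FPKM and *Dnmt3b* at 95.5. The DNA methylation list, which shares *Dnmt3a*, had 1 of 14 higher (7.14%), 0 lower and 13 not passing at a median of 0.08, and its most abundant gene *Uhrf1*, a partner of maintenance methylation, was at 65.9 to 118 FPKM early and 116 and 119 late. Of 23 Polycomb genes 1 was higher, *Jarid2*, a cofactor of the H3K27 methyltransferase (51.9 to 61.99 FPKM early, 97.1 and 85.9 late), 0 were lower and 22 did not pass, at a median of 0.13, and these lists too stand beside 1.6% higher and 3.61% lower of all. *Pax6*, a factor of neural progenitors, was higher, at 1.87 to 3.90 FPKM early and 7.28 and 8.27 late, with a difference of 1.15. It was then at 5.54 at 22 h.

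Feedback genes of ERK signalling had 2 of 19 genes higher, 1 lower and 16 not passing, at a median of 0.17, beside 1.6% higher and 3.61% lower of all tested genes. In the fit without 2 h, 4 were higher and 3 lower, beside 4.01% and 8.97%. *Dusp4*, a phosphatase of ERK, was at 8.05, 8.70 and 11.8 FPKM at 0, 1 and 2 h of the t series and 8.10 at 0 h of the S series, and at 24.7 and 15.02 at 8 and 9 h. Both late libraries were higher, the 8 h library more so, with a difference of 1.11 (SE 0.20, adjusted p 0.0355). *Spry4*, an inhibitor of receptor kinase signalling, was at 22.2 to 26.1 FPKM early and 49.95 and 32.8 late, and *Etv4*, a factor downstream of FGF, passed only without the 2 h library (0.57 with all 6). *Fgf4*, the ligand that ES cells make, was at 38.2 to 47.03 early and 27.7 and 30.96 late, and passed as lower only without the 2 h library (-0.57 with all 6, adjusted p 0.0664).

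Nodal targets had 1 of 14 lower, *Tdgf1*, 0 higher and 13 not passing at a median of -0.17, and without the 2 h library 3 were lower. *Lefty1*, a Nodal inhibitor, was at 57.9 to 96.6 FPKM early and 31.1 and 44.2 late, and did not pass (adjusted p 0.0747). The BMP and Id list had 1 of 15 lower, the inhibitory *Smad6* (3.95 to 5.97 FPKM early and 2.56 and 2.11 late), 0 higher and 14 not passing at a median of -0.20. When 2 h was left out, 4 were lower, at a median of -0.38. These signalling lists stand beside 3.61% lower and 1.6% higher of all tested genes, and 8.97% and 4.01% without 2 h. Of 11 Wnt targets 1 was higher, the Wnt hydrolase *Notum* (8.75 to 11.4 FPKM early and 16.5 and 17.5 late), 2 were lower, the factor gene *Sp5* (2.30 to 2.81 FPKM early and 0.656 and 0.356 late) and *Ccnd1*, and 8 did not pass. Their median was 0.01, and -0.01 after each library was shifted to the same median. It was -0.09 without 2 h, where 3 were lower. In the Notch list limma gave 0 higher and 0 lower of 15, with 4 at an unadjusted p under 0.05, beside 3135 of all 12503. The median was -0.25, and 3 were lower without the 2 h library. *Hes1*, the repressor that Notch induces, was at 17.1, 30.5 and 46.2 FPKM at 0, 1 and 2 h of the t series and 19.7 at 0 h of the S series, and at 9.81 and 5.78 at 8 and 9 h. It was highest at 1 and 2 h and lowest late, did not pass with all 6 libraries (-1.53, adjusted p 0.0584) and was lower without 2 h (-1.34). The retinoic acid list had 1 of 11 higher, the receptor *Rarg* (31.4 to 42.5 FPKM early and 74.02 and 64.2 late), 0 lower and 10 not passing at a median of -0.10, which becomes 0.03 after quantile normalization and 0.04 without 2 h, where 2 were lower.

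The genes of 1 and 2 h could be read in the t series alone and without a test. Only 3 were at least 1 on the log2 scale above each of the other 4 libraries at both hours, and 0 were that far below. At 1 h alone, which is 1 library, 2 genes were that far above every other library and 0 below. *Id3*, an inhibitor of helix-loop-helix factors, was at 45.3, 100.3 and 106 FPKM at 0, 1 and 2 h of the t series and 40.97 at 0 h of the S series, and at 29.98 and 21.4 at 8 and 9 h. Its level was over 2-fold that of 0 h at 1 h and was back under the 0 h levels by 8 h, and the smaller margin was 1.13. *Hey1*, a Notch target, was at 1.67, 4.42 and 12.2 FPKM at 0, 1 and 2 h of the t series and 1.03 at 0 h of the S series, and at 1.68 and 1.06 at 8 and 9 h, and *Gadd45g*, a stress sensor, was at 12.3, 26.1 and 32.5 FPKM at 0, 1 and 2 h of the t series and 8.65 at 0 h of the S series, and at 6.38 and 12.4 at 8 and 9 h. Both were higher at 2 h than at 1 h, in the library that stood apart, and their margins were 1.01. *Jun*, the AP-1 subunit, came next with a margin of 0.88, at 21.9 and 23.3 FPKM at 1 and 2 h and 8.30 to 11.5 in the others, and the small nucleolar RNA *Snora17* with 0.87. Farthest below were *Kbtbd8*, a ubiquitin ligase adaptor, at a margin of 0.44, and *Gm10033*, *Zfp958*, *Gm13152* and *Zfp759* at 0.41 to 0.43. Between late and early libraries *Id3* passed as lower, and *Kbtbd8*, *Zfp958* and *Gm13152* as higher, only without the 2 h library. In adherent culture *Id3* was at 18.5, 22.1 and 25.7 FPKM at 0, 2.5 and 8.5 h and *Jun* at 4.69, 3.16 and 3.56. The counts moved without single libraries, to 5 above without 0 h of the t series, 6 without 2 h and 9 without 0 h of the S series, while 1 below was found without 8 h, and with 2 h alone, without 1 h, 45 were above and 28 below.

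The immediate early list, of genes that respond to stimuli within the hour, had 4 of 28 lower and 1 higher late, with 23 not passing, at a median of -0.59, beside 3.61% lower and 1.6% higher of all tested genes. Without the 2 h library 10 were lower and 2 higher, beside 8.97% and 4.01%. *Zfp36*, which destabilizes messages, was at 8.82, 15.4 and 13.8 FPKM at 0, 1 and 2 h of the t series and 11.4 at 0 h of the S series, and at 5.54 and 4.34 at 8 and 9 h. It was higher at 1 and 2 h than at 0 h of the same series and lowest late, with a difference of -1.11 (adjusted p 0.0452). *Maff*, a small bZIP factor, was lower too, at 5.84 to 11.5 FPKM early and 2.42 and 2.40 late. The other lower genes, *Cyr61* and *Ctgf*, are also counted on the SRF and YAP list. *Zfp36* and the higher gene, *Myc*, are also counted on the LIF and Stat3 list. *Ier2*, the most abundant of the list, was at 84.6 to 181 FPKM early, highest at 2 h, and 112 and 95.5 late. Some members were highest in the 1 h library. *Fos* was at 19.5 FPKM there and 0.767 to 7.36 in the others, *Fosb* at 5.76 and 0.225 to 2.49, and *Egr1* at 72.3 and 5.81 to 49.3. *Nr4a1* was also highest at 1 h, whereas *Ier3* and *Gadd45b* were highest at 2 h. Late against early, *Fos* and *Egr1* passed as lower only without the 2 h library.

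The 12 largest rises were mostly in genes of low level. *Mmp10*, a matrix metalloproteinase (chr9:7502352-7510238, NCBIM37), was at 0.991, 0.784 and 0.759 FPKM at 0, 1 and 2 h of the t series and 0.793 at 0 h of the S series, and at 5.07 and 14.1 at 8 and 9 h. All early values were below 1 and the late ones differed nearly 3-fold from each other, with a difference of 2.26 (SE 0.29, adjusted p 0.0147). *Exoc3l*, related to a subunit of the exocyst (chr8:107813824-107819998, NCBIM37), was among the more abundant, at 8.07, 8.92 and 7.28 FPKM at 0, 1 and 2 h of the t series and 5.75 at 0 h of the S series, and at 30.7 and 27.4 at 8 and 9 h. Every late value was over 3-fold every early one, with a difference of 1.91 (SE 0.15, adjusted p 0.00546). *Serpinb9b*, an intracellular serpin, was at 3.03 to 4.52 FPKM early and 17.6 and 16.9 late and *Gm98*, listed by a predicted gene symbol, at 6.20 to 12.9 FPKM early and 24.8 and 34.4 late. Of surface proteins, *Esam*, an adhesion molecule of endothelium, was at 0.760 to 1.68 early and 7.91 and 5.50 late, *Robo4*, a roundabout receptor, at 1.22 to 2.54 FPKM early and 9.22 and 6.38 late, and *Cd38*, an NAD hydrolase, at 1.93 to 2.60 FPKM early and 9.52 and 7.94 late. *Sema7a*, a membrane-anchored semaphorin, was at 1.45 to 1.88 FPKM early and 7.83 and 9.11 late, and *Olr1*, a receptor for oxidized lipoprotein, at 0.432 to 0.876 FPKM early and 4.85 and 5.64 late. The other 3 were *Cyp2b23*, a cytochrome P450 (1.98), *Krtdap*, of differentiating keratinocytes (1.82), and *Mup6*, a major urinary protein (1.43). In adherent culture *Exoc3l* was at 10.3, 10.1 and 16.8 FPKM at 0, 2.5 and 8.5 h and *Sema7a* at 1.39, 1.34 and 1.45. In the hand-picked cells the mean of *Exoc3l* was 0.0196 RPKM at 0 h and 14.8 at 9 h, and *Mmp10* was listed at 0 in all 8 cells of 0 h and above 0 in 7 of 8 cells of 9 h.

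Genes of stress and nutrient supply are given next. The Atf4 and amino acid list had 4 of 32 lower, 0 higher and 28 not passing, at a median of -0.49, beside 3.61% lower and 1.6% higher of all tested genes. With 2 h left out, 11 were lower and 1 higher, beside 8.97% and 4.01%. *Stc2*, a secreted glycoprotein, was at 3.21, 6.10 and 4.39 FPKM at 0, 1 and 2 h of the t series and 7.48 at 0 h of the S series, and at 1.08 and 1.3 at 8 and 9 h, with a difference of -1.59 (adjusted p 0.0232). *Trib3*, a pseudokinase, was at 9.79 to 15.1 FPKM early and 5.81 and 3.60 late, whereas *Asns*, asparagine synthetase, did not pass at 143 to 164 early and 130.1 and 108 late. The unfolded protein response had 0 higher and 0 lower of 19 in limma, with 1 gene at an unadjusted p under 0.05, beside 3135 of all 12503. The median was 0.02 (0.06 without 2 h), and its chaperone *Hspa5* was at 182 to 274 early and 179.8 and 259.8 late. Of 18 heat shock genes 1 was higher, the chaperone *Hsph1* (56.04 to 58.98 FPKM early and 94.7 and 101 late), 1 was lower, the collagen chaperone *Serpinh1* (101 to 161 FPKM early and 69.1 and 55.9 late), and 16 did not pass, at a median of 0.08. When 2 h was left out, 2 were higher and the median was 0.16. Of 19 genes of Foxo factors and growth factor withdrawal 1 was higher, the cell death gene *Bcl2l11* (0.68), 2 were lower, *Pik3ip1* (-0.73), an inhibitor of PI3 kinase, and *Ccng2* (-0.69), a cyclin of quiescence, and 16 did not pass, at a median of -0.05. Leaving out 2 h gave 3 lower and a median of -0.16. The shares of all tested genes for these lists are those given for Atf4. *Txnip*, which restrains glucose uptake, was at 144, 70.9 and 44.4 FPKM at 0, 1 and 2 h of the t series and 89.4 at 0 h of the S series, and at 75.2 and 67.03 at 8 and 9 h. Its 0 h value of the t series was the highest and its 2 h value the lowest of the 6, and it did not pass (-0.18).

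Of 18 genes of Nrf2 and metal responses 1 was higher, *Srxn1*, a peroxiredoxin reductase (13.8 to 17.7 FPKM early, 38.95 and 25.2 late), 0 were lower and 17 did not pass, at a median of 0.20, beside 1.6% higher and 3.61% lower of all tested genes. *Mt1*, a metallothionein, was at 581 to 1245 FPKM early and 942 and 936 late, and in adherent culture at 311, 1780.0 and 2186 at 0, 2.5 and 8.5 h. Of 6 iron genes limma gave 0 higher and 0 lower, with 1 at an unadjusted p under 0.05, beside 3135 of all 12503. Their median was 0.11, and *Ftl1*, a ferritin chain, was at 1832 to 3022 FPKM early and 2033 and 1476 late. The p53 list had 1 of 24 lower, the death receptor *Fas* (3.92 to 4.84 FPKM early and 1.54 and 1.09 late), 0 higher and 23 not passing, beside the same shares, at a median of -0.04. With 2 h left out, 2 were higher and 4 lower, beside 4.01% and 8.97% of all tested genes. *Trp53*, for p53 itself, was at 179.7 to 227 FPKM early and 321 and 314 late, and passed as higher only without the 2 h library (0.70 with all 6, adjusted p 0.0634).

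Lipid genes gave no calls in limma. Of 24 genes of cholesterol synthesis 0 were higher and 0 lower, with 3 at an unadjusted p under 0.05, at a median of -0.04 (-0.05 without 2 h). Of 18 genes of fatty acid synthesis there were 0 and 0, with 5, at a median of -0.17, and of 6 genes of sterol efflux 0 and 0, with 2, at a median of -0.18. Of all tested genes 1.6% were higher and 3.61% lower, and 3135 of 12503 had an unadjusted p under 0.05 in limma. When 2 h was left out, 0, 2 and 1 genes of these lists were lower, beside 8.97% of all. *Fdps*, a synthase of the sterol pathway, was at 152 FPKM at 2 h and 84.95 to 92.3 in the other 5 libraries. *Acly*, which makes acetyl-CoA, was at 76.03 at 2 h and 117.6 to 122 in the others. *Scd2*, a desaturase, was at 96.8 to 137 early and 64.7 and 87.5 late, and passed as lower only without the 2 h library (-0.73 with all 6). *Apoe*, the lipid carrier, overlapped between groups at 212 to 426 FPKM early and 227 and 174 late.

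Of 34 genes of G1/S and replication in the cell cycle 2 were lower (5.88%, beside 3.61% of all tested genes), 0 higher and 32 did not pass, at a median of 0.00 that is -0.02 after the median shift, -0.03 after quantile normalization and 0.04 without 2 h. *Ccnd2*, a G1 cyclin, was at 69.4, 64.8 and 45.4 FPKM at 0, 1 and 2 h of the t series and 47.02 at 0 h of the S series, and at 18.7 and 16.1 at 8 and 9 h. Both late values were under 20 FPKM and all early ones above 45, with a difference of -1.56 (SE 0.20, adjusted p 0.0147). *Pcna*, the sliding clamp of replication, overlapped at 263 to 354 FPKM early and 348 and 395 late. Of 36 G2/M genes limma gave 0 higher and 0 lower, with 4 at an unadjusted p under 0.05, beside 3135 of all 12503. Their median was 0.05, and *Ccnb1*, the mitotic cyclin, was at 173 to 218 FPKM early and 210.5 and 178 late.

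On the list of Myc and ribosome biogenesis 1 of 35 (2.86%), *Myc* itself, was higher, beside 1.6% of all tested genes, 0 were lower and 34 did not pass, at a median of 0.29. Of the 35 differences 30 were above 0, beside 52.2% of all tested genes. Without the 2 h library 2 were higher, beside 4.01%. *Npm1*, a nucleolar chaperone, overlapped at 2040.0 to 3073 FPKM early and 1995 and 2744 late. Of 44 cytosolic ribosomal protein genes limma gave 0 higher and 0 lower, with 0 at an unadjusted p under 0.05, beside 3135 of all 12503. Their median was -0.14, which is 0.00 without the 2 h library. *Rps2*, of the small subunit, was at 4188 FPKM at 2 h and 2136 to 2611 elsewhere. Of 45 genes of oxidative phosphorylation 0 were higher and 0 lower in limma, with 1 at an unadjusted p under 0.05, at a median of -0.03, which becomes 0.07 without 2 h, and *Atp5b*, of the ATP synthase, was at 1056 to 1255 FPKM early and 1226 and 1056 late.

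The list of cadherin and epithelial genes had 4 of 27 lower, 0 higher and 23 not passing, at a median of -0.33, beside 3.61% lower and 1.6% higher of all tested genes. With 2 h left out, 10 were lower and 1 higher, beside 8.97% and 4.01%. *Vim*, the intermediate filament of mesenchymal and ES cells, was at 493, 590.4 and 584 FPKM at 0, 1 and 2 h of the t series and 463 at 0 h of the S series, and at 269 and 206 at 8 and 9 h. Both late values were below all early ones, with a difference of -1.09 (SE 0.18, adjusted p 0.0278). *Krt19*, a keratin, was at 10.6 to 15.7 FPKM early and 4.71 and 5.60 late, and the tight junction genes *Cldn3* and *Cldn7* had differences of -1.10 and -1.01. *Cdh1*, E-cadherin, was at 74.9, 75.3 and 77.7 FPKM at 0, 1 and 2 h of the t series and 92.6 at 0 h of the S series, and at 101 and 114 at 8 and 9 h. Its late values were above the early ones, yet 0.36 did not pass (adjusted p 0.145). *Itgb1*, an integrin chain, was at 127 to 158 early and 97.4 and 103 late, and passed as lower only without the 2 h library (-0.55 with all 6). The fibroblast markers were lower late beside *Vim*, and their part was not tested.

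Of 17 interferon response genes 2 were lower, *Ifi35* and the immunoproteasome subunit *Psmb8*, 0 were higher and 15 did not pass, at a median of -0.44, beside 3.61% lower of all tested genes. In the fit without 2 h, 5 were lower, beside 8.97%. *Psmb8* was at 1.61 to 3.23 FPKM early and 0.789 and 1.10 late, and *B2m*, a chain of MHC class I, at 69.1 to 123 FPKM early and 45.5 and 76.7 late, passed as lower only without the 2 h library (-0.73, and -0.79 with all 6 at an adjusted p of 0.0524). Of 13 genes of the 2-cell-like state 1 was higher, *Tdpoz3*, a POZ domain gene (0.592 to 1.23 FPKM early and 3.77 and 2.08 late), 0 were lower and 12 did not pass, at a median of 0.22, beside 1.6% higher of all tested genes. *Zscan4a*, a mark of that state, was at 17.3 to 18.8 FPKM in the t series and 10.4 in both S series libraries. Of 11 histone variant genes limma gave 0 higher and 0 lower, with 3 at an unadjusted p under 0.05, beside 3135 of all 12503. Their median was -0.11 (-0.02 without 2 h), and *H2afz*, for H2A.Z, was at 703 to 966 FPKM early and 839.7 and 845 late.

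**Figure D4:**
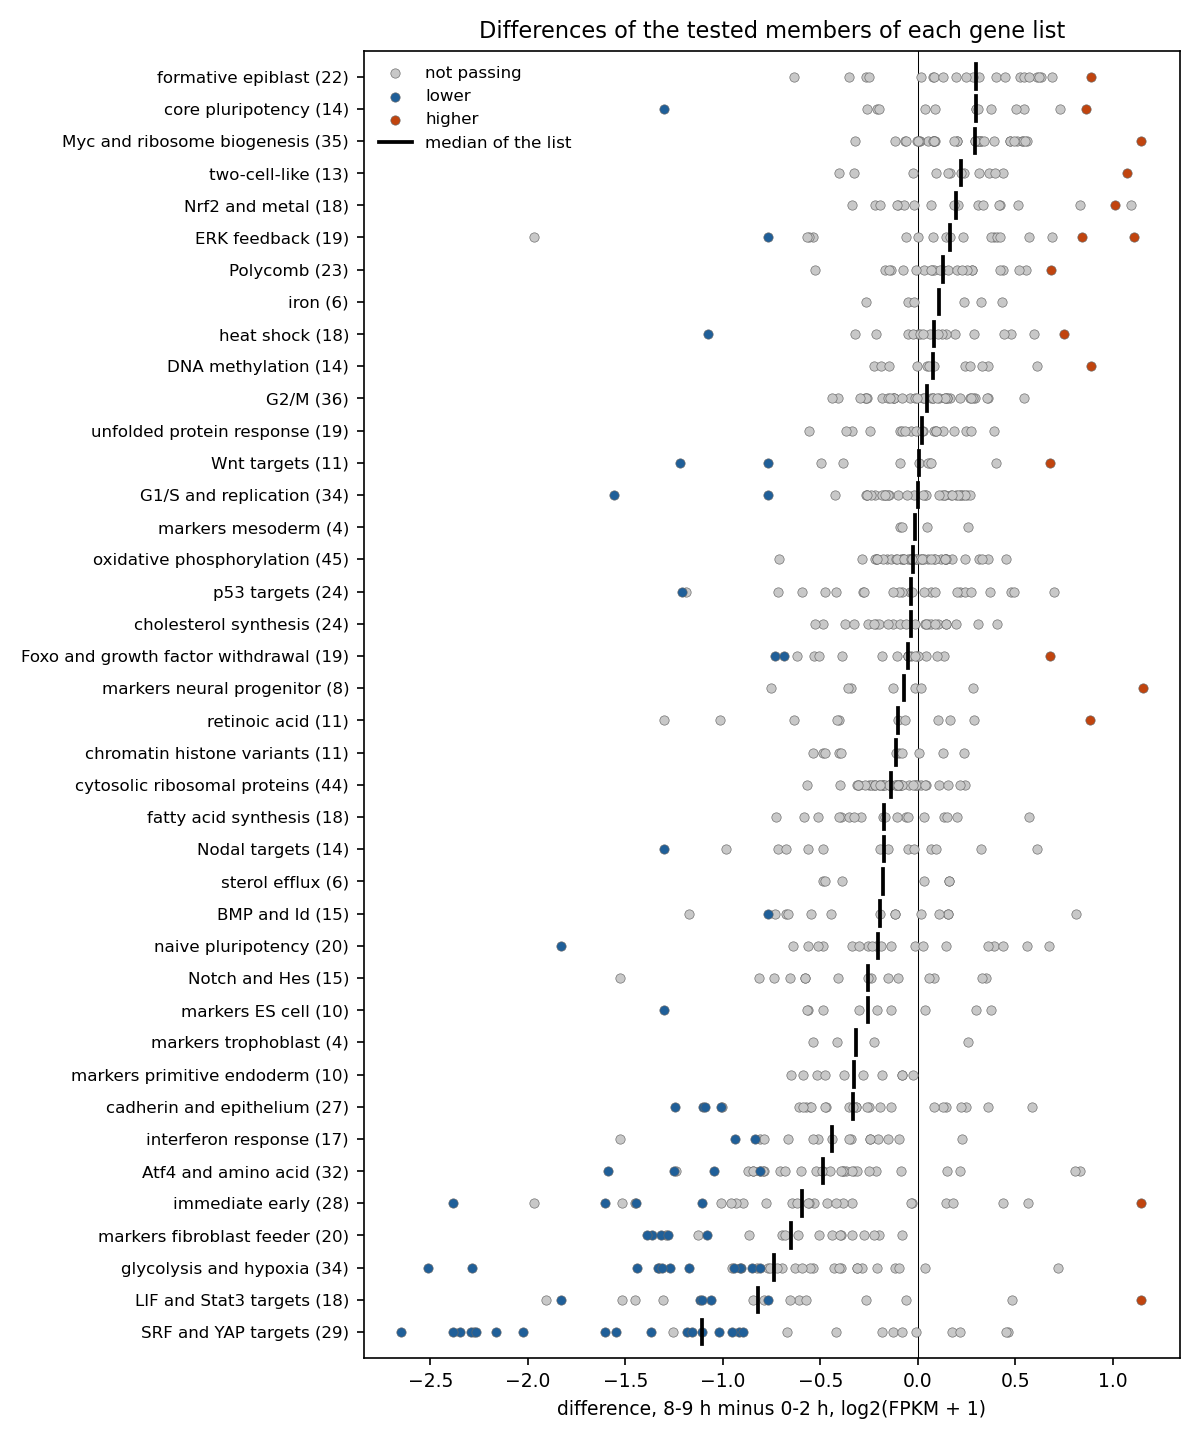
Fitted difference, late minus early on log2(FPKM + 1), of each tested member (points) of the 40 gene lists, with the number tested in brackets, the median as a black bar, lower genes in blue, higher genes in red and genes that did not pass in grey. The lowest medians are those of SRF and YAP targets (-1.11), LIF and Stat3 targets (-0.82), and glycolysis and hypoxia (-0.74). Medians of Wnt targets, retinoic acid, mesoderm and G1/S genes change sign with the scaling.

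The changed genes were last looked up in adherent culture and in the hand-picked cells, which share no library with the comparison. Per the paper, population RNA-seq was done in parallel with the cells at the same hours. The cells of 0 and 9 h are thus matched with the S series libraries and may not be a separate culture. Of the 200 higher genes, 193 were in the adherent table and 148 of these (76.7%) were above 0 at 8.5 h against 0 and 2.5 h, at a median of 0.20, beside 58.6% of 12307 genes tested here at a median of 0.04. Of the lower genes 421 were there and 277 (65.8%) were below 0, at -0.13, where 41.4% of all were. At least 0.5 above were 45 of the 193, beside 600 of the 12307. At least 0.5 below were 66 of the 421, beside 234 of the 12307. In the hand-picked cells 109 of 160 higher genes (68.1%) were above 0, beside 48.8% of 10819 genes, and 200 of 324 lower genes (61.7%) were below 0, beside 50.6%. *Tdgf1* was at 201, 135 and 128 FPKM in adherent culture and at a mean of 304 RPKM in cells of 0 h and 5.53 in cells of 9 h, and *Dnmt3a* at 36.03, 33.3 and 55 FPKM and at 3.20 and 9.28 RPKM. *Thbs1* was below 1 RPKM in the mean of the cells at both hours (0.0294 and 0.199).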

How the data were processed

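RNA-seq of R1 ES cell populations in SFEB culture was analysed from the table that the authors deposited as FPKM after ComBat batch correction, which are not logged and in part fall below 0. The batches given to ComBat are not stated. The authors mapped single-end reads of Nextera XT libraries to mm9 with Tophat and computed expression with Cufflinks, and the submitters' processing notes give TopHat2 2.0.8b and Cufflinks 2.1.1 where the methods name other versions. Adherent values were deposited by the authors as FPKM with no batch correction stated. Single-cell values were deposited by the authors as log10 of RPKM + 1 after quantile normalization, and were turned back to RPKM before averaging 8 cells per hour.

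Values below 0 were set to 0 and log2(FPKM + 1) was taken. Genes with at least 1 in at least 2 of the 6 samples were fitted with limma 3.58.1 in R 4.3.3 (late against early, with a term for the series, trended variance, Benjamini-Hochberg adjustment over all genes tested, two-sided, residual degrees of freedom 3 and 6.91 with the prior). Tests were checked on simulated data, of which no result is given here. A gene counted as changed below an adjusted p of 0.05 with at least 0.5 on the log2 scale in the same direction in both series. Named genes were the 12 largest rises and 12 largest falls among changed genes with a mean of at least 5 in a group, changed members and up to 4 of the most abundant members of 40 gene lists, and the 5 with the largest margin in each direction at 1 and 2 h. Some further members of the naive pluripotency, SRF and YAP, and immediate early lists are given after their values were seen. The members and lists were chosen with earlier results of these data known. The 0 h library of the t series has a label without a sample type, so its title was used to place it. Gene positions and lengths are from the NCBIM37 annotation (98.7% of tested genes have a length), and promoters from RefSeq, GRCm38.p6. Alternatives covered the pseudocount, the filter, the series term, the baseline, scaling, values below 0, the variance trend and each library. Python 3.11.15 with numpy 2.4.6, pandas 2.3.3 and matplotlib 3.10.9 was also used. Read counts were not analysed here.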

Additional observations from a re-analysis of the deposited data

Results flagged for a closer look

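In 239 groups of 4 early values, 1 per library measure or named gene, the gap of the highest or lowest library to its neighbour was divided by the range, and 25 groups exceeded Dixon's 95% critical value for 4 samples. Chance gives such a gap in about 1 in 20 groups, and the genes share libraries. The library measure among the flagged groups was the number of values below 0 (0.978), with 142 at 0 h of the S series and 3 to 6 in the others. The count of genes at least 1 above all other libraries is not among the 25. It too stood apart, with 28 at 2 h and 2, 2 and 1 in the other early libraries.

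The 2 h library was the one apart in 13 of the genes. It was lowest for *Acta2* (0.902), *Tcf7* (0.959), *Acly* (0.913), *Lpcat3* (0.954), *Dnmt1* (0.906), *Fn1* (0.950) and *Fbln2* (0.864). *Dnmt1*, for example, was at 38.2 FPKM there and 55.0 to 57.1 in the other early libraries, and *Lpcat3* at 14.3 against 20.2 to 20.5. It was highest for *Tagln* (0.843), *Ankrd37* (0.836), *Dppa5a* (0.872), *Fdps* (0.904), *Ncl* (0.848) and *Rps2* (0.891). *Ankrd37* was at 15.1 FPKM at 2 h and 7.97 to 8.88 in the others. *Acta2*, *Tagln* and *Ankrd37* were lower late with and without this library.

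The 0 h library of the S series was apart in 8 others. It was highest for *Bnip3* (0.916), at 61.3 FPKM against 33.5 to 35.3, and for *Asns* (0.925), at 164.2 against 143.3 to 144.7. It was lowest for *Notum* (0.920), *Fas* (0.944), *Zscan4a* (0.856), *Gata3* (0.986), *T* (0.903) and *Fabp7* (0.963). For *Gata3*, *T*, *Zscan4a* and *Fabp7* the 9 h library of the same series was low as well, with *T*, a mesoderm factor, at 2.34 to 2.56 FPKM in the t series and 0.857 and 0.518 in the S series.

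The others were set by libraries of the t series. *Mmp10* (0.848) was at 0.991 FPKM at 0 h and 0.759 to 0.793 in the rest, *Spry4* (0.843) at 26.1 at 0 h and 22.2 to 22.7, and *Odc1* (0.833) at 322.7 at 1 h and 337 to 339.9. The part of a batch in these gaps was not tested.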

How the results depend on the processing

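The counts of higher and lower genes moved with the settings. With a pseudocount of 5 they were 121 and 213, with a mean of at least 5 FPKM 98 and 205 (fewer genes were tested), with only the 0 h baseline 532 and 1099, with the median shift 256 and 692, and with quantile normalization 317 and 488. Over fits without 1 library the higher genes ranged from 0 to 501 and the lower from 0 to 1121. Without the series term as well, chosen after seeing the data, they were 33 and 113 without 8 h and 8 and 22 without 9 h. Without the series term alone there were 297 and 658, with no filter 170 and 362, without genes with values below 0 212 and 476, without the trend 186 and 440, and with a pseudocount of 0.1 192 and 521.

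Genes at least 2-fold apart in both series numbered 100 higher and 407 lower with a pseudocount of 0.1, 5 and 50 with 5, and 16 higher with a mean of at least 5. At 1 and 2 h, 6 genes were above with a pseudocount of 0.1 and 1 with a pseudocount of 5, the median shift or quantile normalization, and without 1 library 3 to 45 were above and 0 to 28 below. The cause of these moves was not tested. Counts in other cultures stayed within 1.5 times under both pseudocounts. A difference at 2-fold in both series could not be formed without a late library or the S series 0 h library.

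No paired analysis was possible by replicate number because the labels of the 6 libraries carry none. The fit does have a term for the series, and with only the 0 h baseline each series has 1 early and 1 late library, which gave the 532 higher and 1099 lower genes above. Without counts no depth limit can be set.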

Other observations

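The genes in these observations were chosen after their values were seen. Of 321 tested genes with a Zfp symbol, which encode zinc finger proteins, 10 were higher late (3.12%, beside 1.6% of all tested genes) and 2 lower (0.623%, beside 3.61%), with a median log2 difference of 0.23. *Zfp958* was at 8.55, 5.83 and 6.14 FPKM at 0, 1 and 2 h of the t series, 8.81 at 0 h of the S series, and 11.4 and 12.9 at 8 and 9 h, and did not pass (adjusted p 0.101 in limma), but was higher without the 2 h library. Of 26 tested collagen genes 6 were lower, where 3.61% of all tested genes were, and 1 was higher, where 1.6% were, at a median of -0.45. The sum of the fibroblast markers, some of which are collagens, was lower late as well, and their part was not tested.

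*H19*, an imprinted noncoding RNA, was at 439.6, 376.1 and 311.1 FPKM at 0, 1 and 2 h of the t series, 428.8 at 0 h of the S series, and 161.0 and 118.9 at 8 and 9 h. Its difference was -1.46 on the log2 scale (limma adjusted p 0.0235). The neighbouring growth factor gene *Igf2* was at 110.7 to 167.1 FPKM early and 76.4 and 50.3 late (-1.19), the imprinted *Dlk1* at 8.49 to 16.4 early and 6.17 and 3.95 late (-1.04), and *Grb10*, an adaptor of growth factor receptors, at 33.5 to 55.7 early and 20.2 and 25.7 late (-1.01). The imprinted genes *Mest*, at 40.4 to 48.8 early and 57.6 and 60.7 late, and *Peg3*, at 11.1 to 20.7 early and 12.9 and 8.91 late, did not pass, and no list of imprinted genes was counted. The sum of the fibroblast markers was lower late too, and the part of fibroblasts in these falls was not tested.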
